A study of Homo sapiens with 4 samples.

Results

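PC3 cells that carried an shRNA against p14ARF and were treated with the NEDDylation inhibitor MLN4924 (Both) were compared with unmodified PC3 cells given DMSO (Ctrl). PC3 is an established human prostate cancer line. The PC3-shp14ARF cells were made by stable retroviral transduction and hygromycin selection, and no control shRNA is named for the Ctrl cells, so the effects of the drug, of the hairpin and of deriving the line cannot be told apart in Both vs Ctrl. Treatment was with 1 µM MLN4924 or with DMSO for 3 days. The series' design text instead gives 1 mM and calls the line a knockout. Each group had 3 replicate libraries, and the labels do not say whether these came from separate cultures, so p-values measure the spread between these libraries, which may be technical. PC3 cells with MLN4924 (MLN, 3 libraries) and PC3-shp14ARF cells with DMSO (shARF, 3 libraries) show where the combined condition differed from each change alone.

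The comparison took 6 of the 12 libraries and every gene whose TPM (the share of transcripts, corrected for gene length) averaged 1 or more across them, 14547 of 43622. TPM values of a library always add up to one fixed total, so the depth behind each value is unknown and a rise of some transcripts lowers the share of the rest. Fold changes are log2 differences of TPM + 0.1, so the change of weakly expressed genes is understated. Calls required both a Benjamini-Hochberg adjusted p under 0.05 and a log2 difference beyond 1 (or, for larger changes, 2) in either direction.

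MLN4924 blocks the enzyme that loads the ubiquitin-like protein NEDD8, and NEDD8 keeps the cullin-RING ubiquitin ligases active. Substrates of these ligases include the NF-kB inhibitor IkBa, the antioxidant factor NRF2, the replication licensing factor CDT1 and the CDK inhibitors p21 and p27. p14ARF is a nucleolar tumour suppressor that binds MDM2 and so protects p53, and PC3 cells are known to lack p53 protein. CDKN2A encodes both p14ARF and p16INK4a, which share exons.

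CDKN2A (chr9:21967752-21995324 of GRCh38) fell in the combined condition. The Ctrl libraries held 190, 183 and 177 TPM and the Both libraries 47.2, 41.2 and 54 TPM, with no overlap. The log2 fold change was -1.96 ± 0.10 (SE, n = 3 per group) with an adjusted p of 2.1e-08. The MLN libraries were at 118 ± 16.4 TPM (SD) and the shARF libraries at 59.3 ± 1.47 TPM. A value per gene does not separate p14ARF from p16INK4a transcripts.

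The epithelial markers EPCAM, KRT8, KRT18, KRT19 and CDH1 summed to between 907 and 1004 TPM in Ctrl and between 433 and 450 TPM in Both, and 3 of the 5 were called lower. The androgen-response markers were low in all 12 libraries, with KLK3 listed at 0 in each. Among markers of other cell types, the leukocyte gene PTPRC reached at most 0.322 TPM and the endothelial gene VWF at most 0.0281 TPM in Both. The leukocyte list summed to between 309 and 352 TPM in Both and between 211 and 266 TPM in Ctrl, nearly all of it CD68 and LYZ, which moved in opposite directions: CD68 went from 187 ± 37.8 to 328 ± 21.6 TPM and LYZ from 43.6 ± 7.22 to 6.3 ± 1.31 TPM (log2 fold change -2.78, called lower). The fibroblast list summed to between 16.2 and 17.6 TPM in Both and between 22.5 and 25.7 TPM in Ctrl, a sum in which COL3A1 was called higher (0.525 ± 0.164 to 5.79 ± 0.127 TPM) and PDGFRA lower (8.66 ± 0.692 to 0.373 ± 0.11 TPM). The endothelial list summed to between 13.7 and 16.6 TPM in Both against 113 to 123 TPM in Ctrl, with KDR at 14.9 and 105 TPM on average and CDH5 at 0.127 TPM or less in both groups. PECAM1 went from 11.7 ± 0.77 TPM in Ctrl to 0.173 ± 0.0403 TPM in Both, and PECAM1 and KDR, the 2 tested, were called lower. The erythroid list stayed at 5.56 TPM or less in the 6 libraries. The 37 genes of the mitochondrial genome held between 7.85% and 10.9% of a Ctrl library and between 10.2% and 13.2% of a Both library, and the part of this in the results was not tested.

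Of the 14547 genes, 10773 (74.1%) had an adjusted p below 0.05 in Both vs Ctrl. At a log2 fold change beyond 1, 1824 genes were called higher (12.5%) and 2313 lower (15.9%). Beyond 2, 695 genes were called higher (4.78%) and 742 lower (5.1%). On log2(TPM + 0.1), fold changes ran from -10.62 for SERPINB3 to 10.76 for HPD, around a median of -0.06 over all genes tested.

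**Figure D1:**
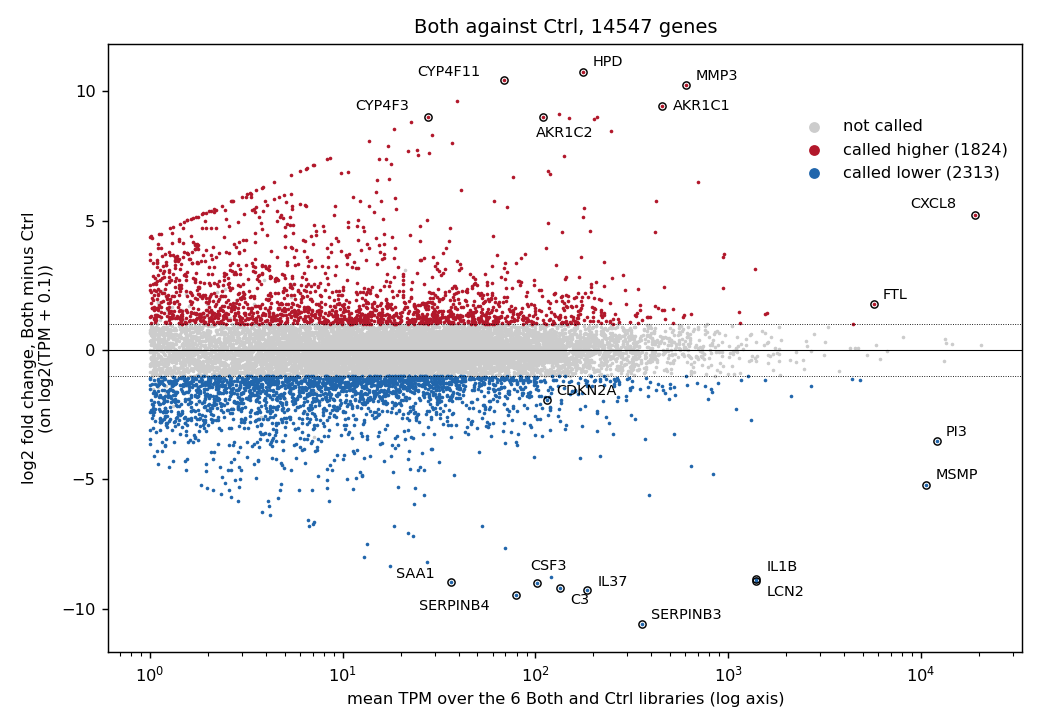
Log2 fold change of Both against Ctrl (vertical axis, on log2(TPM + 0.1)) against the mean TPM over the 6 libraries (horizontal log axis), with 1 point for each of 14547 genes. Red points are the 1824 genes called higher and blue points the 2313 called lower. CXCL8 stands far to the right at a log2 fold change of 5.22, and PI3 and MSMP lie at the same end below 0.

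The called genes held a different share of all transcripts in each condition. The 1824 genes called higher took 3.95% ± 0.0621 of the TPM in Ctrl and 16.6% ± 0.181 in Both (SD, n = 3), beside 15.4% ± 0.357 in MLN and 4.68% ± 0.075 in shARF. Without CXCL8 the shares were 3.85% in Ctrl and 12.9% in Both. The 2313 genes called lower took 18.3% ± 0.589 in Ctrl and 4.61% ± 0.075 in Both, beside 6.06% ± 0.347 in MLN and 12.6% ± 0.266 in shARF. Without PI3 and MSMP they took between 13.7% and 14.6% of a Ctrl library and between 4.27% and 4.40% of a Both library. These shares restate the calls and are given as a description.

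**Figure D2:**
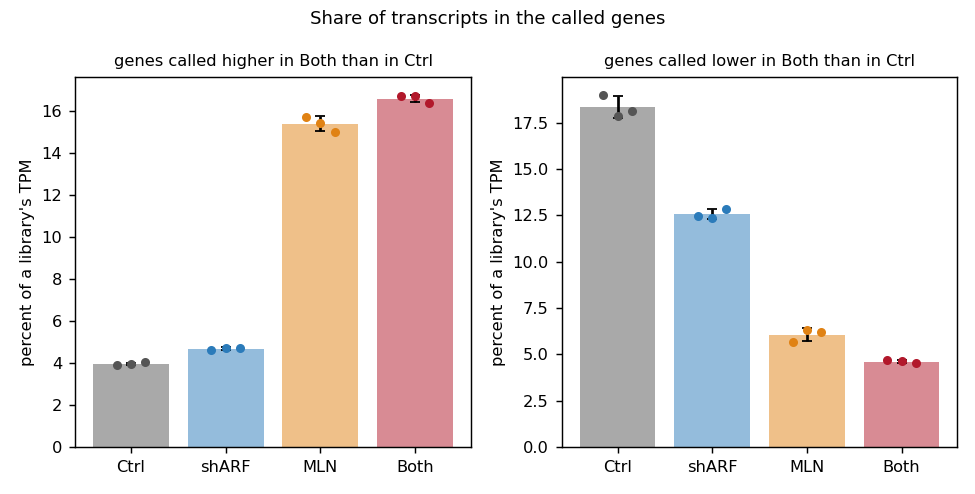
Percent of a library's TPM (vertical axes) held by the 1824 genes called higher (left) and the 2313 genes called lower (right) in Both vs Ctrl, with 1 point a library, bars at the mean and error bars of 1 SD (n = 3). In the left panel MLN and Both stand near each other at 15.4% and 16.6%, and in the right panel the order from high to low is Ctrl, shARF, MLN and Both.

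Sequences at the start sites of some of the named genes are shown, several of which are neighbours or copies of each other. The windows of HPD, MMP3, AKR1C1, AKR1C2, IL1B, IL37 and C3, among others, are not shown. Matches marked in the shown windows describe these genes only and not the named genes as a set. Windows of 300 bases (250 before the annotated start and 50 after it, from RefSeq, GRCh38.p14, read 5′ to 3′ along the gene's strand) were searched on both strands for the antioxidant response element core TGACNNNGC, the AP-1 motif TGANTCA and the kappaB consensus. TGANTCA reads the same way on both strands and can lie within TGACNNNGC. Of all 35093 windows in the table, 13.4% held the antioxidant response core, 7.71% the AP-1 motif and 11.3% the kappaB consensus. The windows of genes called higher beyond a log2 fold change of 2 numbered 421 for 334 of the 695 genes, and 14.7%, 15.2% and 12.1% of them held the 3 motifs in that order. The 676 windows of 445 of the 742 genes called lower beyond 2 gave 13.5%, 7.1% and 15.4%. Over all genes tested the shares were 14.5%, 5.64% and 13.4%. These are descriptions with no test, and a match is not a site of binding.

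The window of the abundant chemokine gene CXCL8 (chr4:73740319-73740618, plus strand), the 2 windows of CYP4F11 (chr19:15934818-15935117 and chr19:15934480-15934779, minus strand) and that of its relative CYP4F3 (chr19:15641062-15641361, plus strand) belong to genes that rose, with motif matches in capitals.
CXCL8: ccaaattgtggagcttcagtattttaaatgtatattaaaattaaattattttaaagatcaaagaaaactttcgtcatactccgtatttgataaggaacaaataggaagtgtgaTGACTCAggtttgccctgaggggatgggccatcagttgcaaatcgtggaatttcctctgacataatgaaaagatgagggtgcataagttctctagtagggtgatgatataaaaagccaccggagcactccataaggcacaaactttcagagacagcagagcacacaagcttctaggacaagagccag
CYP4F11 upstream start: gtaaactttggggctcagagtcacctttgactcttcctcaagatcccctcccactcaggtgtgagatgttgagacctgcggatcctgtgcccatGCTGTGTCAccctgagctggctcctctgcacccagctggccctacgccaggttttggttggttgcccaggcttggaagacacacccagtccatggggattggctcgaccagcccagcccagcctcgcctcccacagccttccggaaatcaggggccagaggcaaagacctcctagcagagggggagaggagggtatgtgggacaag
CYP4F11 downstream start: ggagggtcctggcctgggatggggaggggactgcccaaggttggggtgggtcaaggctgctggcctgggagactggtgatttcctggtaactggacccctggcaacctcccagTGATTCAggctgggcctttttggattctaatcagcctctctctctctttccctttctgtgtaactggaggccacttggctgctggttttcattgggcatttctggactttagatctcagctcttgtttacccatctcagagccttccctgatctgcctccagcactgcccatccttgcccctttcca
CYP4F3: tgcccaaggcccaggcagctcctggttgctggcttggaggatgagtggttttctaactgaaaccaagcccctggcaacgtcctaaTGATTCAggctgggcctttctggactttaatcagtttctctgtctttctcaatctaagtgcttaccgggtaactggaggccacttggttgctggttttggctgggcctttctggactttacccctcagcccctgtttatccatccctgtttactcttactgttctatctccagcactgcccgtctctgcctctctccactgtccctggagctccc
CXCL8 held TGACTCA from base 114 of its window. Only exact matches to the patterns are marked. The CXCL8 window also holds tggaatttcc, which resembles GGGAATTTCC, the kappaB match of NFKBIA below, but was not a match in the search. CYP4F11 held an antioxidant response core from base 95 of the upstream window, on the opposite strand, and TGATTCA from base 114 of the downstream window. CYP4F3 held the same TGATTCA from base 86.

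LCN2 (chr9:128149203-128149502, plus strand) and NFKBIA (chr14:35404700-35404999, minus strand) are known NF-kB targets that fell, with motif matches in capitals.
LCN2: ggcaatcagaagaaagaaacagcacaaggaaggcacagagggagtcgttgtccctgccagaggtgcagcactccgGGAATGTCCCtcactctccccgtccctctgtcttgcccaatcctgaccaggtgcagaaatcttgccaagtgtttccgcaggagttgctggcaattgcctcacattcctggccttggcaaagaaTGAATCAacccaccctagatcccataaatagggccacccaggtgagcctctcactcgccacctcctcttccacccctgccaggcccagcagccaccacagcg
NFKBIA: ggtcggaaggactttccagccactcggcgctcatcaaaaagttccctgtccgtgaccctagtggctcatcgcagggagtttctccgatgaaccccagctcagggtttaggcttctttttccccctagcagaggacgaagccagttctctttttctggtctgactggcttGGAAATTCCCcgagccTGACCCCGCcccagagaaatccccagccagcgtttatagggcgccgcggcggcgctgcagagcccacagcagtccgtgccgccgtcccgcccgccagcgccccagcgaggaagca
In LCN2 a kappaB match began at base 76 on the opposite strand and an AP-1 match at base 199. In NFKBIA a kappaB match began at base 170 on the opposite strand and an antioxidant response core at base 186.

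SERPINB3 (chr18:63661844-63662143) and SERPINB4 (chr18:63644207-63644506), both on the minus strand, are neighbouring copies that fell together, and capitals mark the bases at which their windows differ.
SERPINB3: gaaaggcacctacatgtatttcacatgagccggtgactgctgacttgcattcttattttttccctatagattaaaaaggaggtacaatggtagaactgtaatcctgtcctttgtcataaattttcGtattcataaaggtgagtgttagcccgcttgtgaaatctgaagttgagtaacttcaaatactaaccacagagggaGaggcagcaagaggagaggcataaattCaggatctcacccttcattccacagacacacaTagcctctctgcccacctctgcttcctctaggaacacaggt
SERPINB4: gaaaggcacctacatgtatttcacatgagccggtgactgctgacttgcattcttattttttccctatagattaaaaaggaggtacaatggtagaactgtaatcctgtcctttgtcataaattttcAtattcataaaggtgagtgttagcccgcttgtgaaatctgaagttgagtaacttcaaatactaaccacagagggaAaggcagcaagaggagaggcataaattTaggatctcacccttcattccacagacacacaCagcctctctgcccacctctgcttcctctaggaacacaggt
The windows were identical at 296 of 300 bases (98.7%), with the differences G126A, G201A, C228T and T260C counted from 1 at the 5′ end of the window, SERPINB3 base first. Most of each window is not transcribed, so this identity does not show how reads divide between the 2 genes, and their separate values are uncertain as those of close paralogs.

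The largest rises were in genes that were near 0 in Ctrl and were already high with the drug alone. HPD, which encodes an enzyme of tyrosine breakdown, was at 0.0703, 0.202 and 0.0683 TPM in Ctrl and at 368, 356 and 342 TPM in Both. Its log2 fold change was 10.76 ± 0.19 (adjusted p = 2.3e-11). MLN alone reached 158 ± 18.6 TPM, so Both was higher than MLN by 1.18 ± 0.10 on the log2 scale (adjusted p = 1.5e-05). The shARF libraries stayed at 0.0714 TPM or less.

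CYP4F11 and CYP4F3, cytochrome P450 enzymes that hydroxylate fatty acids, lie in a cluster on chromosome 19. CYP4F11 was listed at 0 in all 3 Ctrl libraries and at 152, 134 and 127 TPM in Both. CYP4F3 was at 0, 0.0271 and 0 TPM in Ctrl and at 55.3, 56.2 and 54.2 TPM in Both. Both genes were higher than in MLN, where they held 35.4 ± 1.78 and 18.7 ± 1.14 TPM, by log2 differences of 1.96 ± 0.09 (adjusted p = 7.2e-07) and 1.56 ± 0.08 (adjusted p = 9.7e-07).

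AKR1C1 and AKR1C2 encode aldo-keto reductases that act on steroids and carbonyls and are known NRF2 targets. They adjoin each other on chromosome 10 and have near-identical sequences, so their division is uncertain. AKR1C1 rose from 1.03, 1.55 and 1.16 TPM in Ctrl to 908, 914 and 895 TPM in Both (log2 fold change 9.41 ± 0.12, adjusted p = 1.9e-12). AKR1C2 rose from 0.331 ± 0.0891 to 219 ± 4.82 TPM (9.01 ± 0.14). Both genes were higher in Both than in MLN, by 0.90 ± 0.08 and 1.40 ± 0.07.

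MMP3 (chr11:102835801-102843609), the secreted protease stromelysin 1, was at 0.992, 0.876 and 0.816 TPM in Ctrl and at 1323, 1313 and 995 TPM in Both. Its log2 fold change was 10.24 ± 0.12 (adjusted p = 1.4e-12), and Both exceeded MLN (634 ± 27.4 TPM) by 0.92 ± 0.12 (adjusted p = 0.00027). Its neighbour MMP10 (stromelysin 2) rose from 9.65 ± 0.917 to 343 ± 39.7 TPM (5.13 ± 0.10), and was at 174 ± 22.5 TPM in MLN and 35.9 ± 1.58 TPM in shARF.

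TNFSF18, the ligand of the T cell receptor GITR, rose from 0.311, 0.968 and 0.378 TPM to 295, 342 and 263 TPM (log2 fold change 8.97 ± 0.28, adjusted p = 9.3e-10). It did not pass the test against MLN (0.34 ± 0.13, adjusted p = 0.055). SPANXB1, an X-linked gene normally expressed in sperm, was listed at 0 in all 3 Ctrl libraries and at 81.7, 81.3 and 71.3 TPM in Both. Its log2 difference from MLN was -0.45 ± 0.14 (adjusted p = 0.025, but 0.053 to 0.090 without MLN 1, MLN 5, Both 3 or Both 4), and near-identical SPANX copies make its own count uncertain. The unnamed transcripts AP003064.2 and AL596223.1 rose to 264 ± 8.78 and 419 ± 14.6 TPM from 0.397 ± 0.164 and 0.794 ± 0.42 TPM.

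All 10 of these largest rises were at 1.68 TPM or less in every shARF library.

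**Figure D3:**
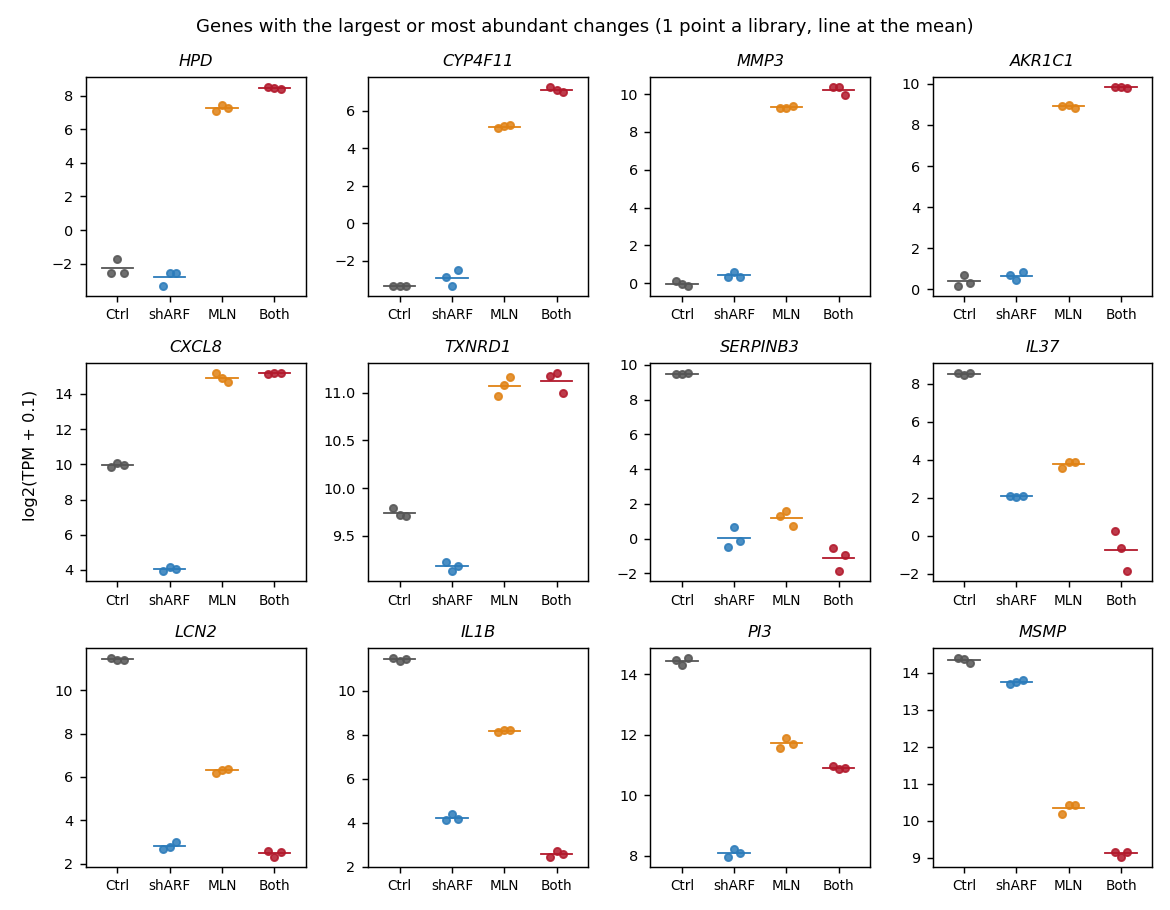
Log2(TPM + 0.1) (vertical axes, each with its own range) of 12 genes in the 4 conditions, with 1 point a library and a line at the mean of 3. HPD, CYP4F11, MMP3 and AKR1C1 are high in MLN and Both and at 1.68 TPM or less elsewhere, while SERPINB3, IL37, LCN2 and IL1B are high in Ctrl and lowest in Both. CXCL8 and PI3 reach their lowest level in shARF.

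SERPINB3 and SERPINB4, squamous epithelial inhibitors of proteases, lost nearly all of their transcripts. SERPINB3 was at 697, 708 and 750 TPM in Ctrl and at 0.59, 0.171 and 0.411 TPM in Both (log2 fold change -10.62 ± 0.26, adjusted p = 1.6e-10). SERPINB4 was at 154, 157 and 165 TPM in Ctrl and at 0.149, 0.0754 and 0.145 TPM in Both (-9.50 ± 0.14). SERPINB3 was also lower than in MLN (2.24 ± 0.678 TPM), whereas SERPINB4 did not pass that test (adjusted p = 0.07). Against shARF (0.97 ± 0.457 TPM) SERPINB3 passed with all libraries (-1.14 ± 0.44, adjusted p = 0.042) but not without Both 3, Both 4, shARF 3 or shARF 5 (adjusted p from 0.067 to 0.15), and SERPINB4 did not pass (adjusted p = 0.12).

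IL1B and IL37 lie within the same cytokine cluster on chromosome 2. IL1B, a central inflammatory cytokine, was at 2878, 2603 and 2822 TPM in Ctrl and at 5.37, 6.57 and 5.85 TPM in Both. Its log2 fold change was -8.85 ± 0.09 (adjusted p = 3.7e-13). It also stood below MLN (291 ± 8.18 TPM, difference -5.60 ± 0.09) and below shARF (18.9 ± 2.08 TPM, difference -1.65 ± 0.11). IL37, which encodes an anti-inflammatory member of the family, fell from 373, 347 and 383 TPM to 1.07, 0.543 and 0.174 TPM (-9.28 ± 0.39, adjusted p = 6.5e-09).

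LCN2, an iron-binding protein of epithelial defence, was at 2879, 2678 and 2758 TPM in Ctrl and at 5.9, 4.85 and 5.76 TPM in Both (-8.96 ± 0.08, adjusted p = 3.7e-13). C3, the central complement protein, was at 281, 257 and 265 TPM in Ctrl and at 0.288, 0.474 and 0.333 TPM in Both (-9.19 ± 0.13). CSF3, the granulocyte growth factor, was at 205 ± 11.3 TPM in Ctrl and 0.339 ± 0.249 TPM in Both (-9.02 ± 0.31). These genes were lower in Both than in MLN, with differences of -3.82 ± 0.10 for LCN2, -5.05 ± 0.18 for C3 and -2.56 ± 0.39 for CSF3. Against shARF, C3 did not pass the test (-0.25 ± 0.38, adjusted p = 0.56), LCN2 was slightly lower in Both (-0.33 ± 0.12, adjusted p = 0.039) and CSF3 was higher in Both (1.72 ± 0.64, adjusted p = 0.036, with 0.0238 ± 0.0413 TPM in shARF). LCN2 did not pass without Both 3, Both 4, shARF 3 or shARF 5 (adjusted p from 0.054 to 0.14), and CSF3 did not pass without Both 2, Both 3, shARF 1 or shARF 3 (adjusted p from 0.063 to 0.13).

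SAA1, an acute-phase protein, was at 69.2, 80.2 and 68.5 TPM in Ctrl and at 0, 0.199 and 0 TPM in Both. FCGBP, a mucus protein, fell from 240 ± 20.9 to 0.453 ± 0.0631 TPM (-8.76 ± 0.11), with 1.6 ± 0.106 TPM in MLN and 28.5 ± 2.58 TPM in shARF. The long noncoding RNA LINC00261 (chr20:22560553-22578642), which neighbours the gene of the liver and gut factor FOXA2, fell from 38.6, 35 and 32.5 TPM to 0, 0 and 0.0263 TPM (-8.35 ± 0.20, adjusted p = 1.2e-10).

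CXCL8 (chr4:73740569-73743716), the neutrophil-attracting chemokine IL-8, was at 926, 1085 and 983 TPM in Ctrl and at 35971, 37384 and 37772 TPM in Both. Its log2 fold change was 5.22 ± 0.09 (adjusted p = 1e-11). MLN alone held 37120, 30320 and 26400 TPM, a range that overlapped that of Both, and the difference did not pass the test (0.26 ± 0.19, adjusted p = 0.31). The shARF libraries held 16.6 ± 1.44 TPM, so that Both lay 11.12 ± 0.07 above shARF on the log2 scale (adjusted p = 1.4e-11).

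FTL, the ferritin light chain that stores iron, rose from 2510, 2672 and 2553 TPM to 10600, 7889 and 7940 TPM (1.76 ± 0.11, adjusted p = 1.9e-07). TXNRD1, the cytosolic thioredoxin reductase, rose from 855 ± 27 to 2239 ± 174 TPM (1.39 ± 0.08), a level that did not differ from MLN past the threshold (adjusted p = 0.71). TIMP1, an inhibitor of matrix metalloproteinases, rose from 859 ± 31.4 to 2336 ± 137 TPM (1.44 ± 0.07) and was also above MLN (0.65 ± 0.12, adjusted p = 0.0017). MT-RNR2, the large ribosomal RNA of the mitochondrion, was at 2578, 2915 and 3367 TPM in Ctrl and at 5250, 5807 and 6838 TPM in Both (1.01 ± 0.12), and its fold change fell under the cutoff without Ctrl 1 (0.92) or Both 4 (0.91).

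On the falling side, PI3, the secreted elastase inhibitor elafin, went from 22857, 20330 and 23717 TPM to 2022, 1864 and 1906 TPM (-3.53 ± 0.09, adjusted p = 2e-10). It was lower still in shARF, at 273 ± 24 TPM, and Both lay 2.82 ± 0.08 above shARF (adjusted p = 1.1e-08). MSMP, a small secreted protein of prostate cells, went from 21498, 21077 and 19763 TPM to 576, 522 and 573 TPM (-5.22 ± 0.08). Unlike PI3 it was high in shARF, at 13785 ± 575 TPM.

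TMSB10 and TMSB4X, thymosins that bind actin monomers, fell from 6724 ± 1066 to 2984 ± 42.4 TPM and from 3892 ± 528 to 1483 ± 203 TPM. GAPDH, a glycolytic enzyme often used as a reference gene, fell from 6550, 5732 and 5756 TPM to 2990, 2686 and 2559 TPM (-1.13 ± 0.09, adjusted p = 9.8e-07). Its level in shARF was 6144 ± 186 TPM and in MLN 3248 ± 544 TPM.

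To ask where the combination went further than either change alone, Both was compared with MLN and with shARF on the same genes. Against MLN, 264 genes were called higher (1.81%) and 817 lower (5.62%). Against shARF, 1828 were called higher (12.6%) and 1989 lower (13.7%). Genes called in 1 direction against Ctrl, MLN and shARF numbered 109 higher (0.749%) and 216 lower (1.48%). The 3 comparisons share the Both libraries, so these counts are not independent.

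The 5 risers of this kind with the largest margin, chosen by these differences, were mostly low in every other condition. LINC02366, a long noncoding RNA, was listed at 0 in all 3 Ctrl libraries and at 11, 9.9 and 11.7 TPM in Both, against 0.928 ± 0.109 TPM in MLN. KRT16, a keratin of wounded and hyperproliferating epidermis, was at 0.0631, 0.121 and 0.0614 TPM in Ctrl and at 21.9, 21.2 and 20.5 TPM in Both, against 3.11 ± 0.813 TPM in MLN and 0.677 ± 0.0365 TPM in shARF. It lay 2.76 ± 0.16 above MLN (adjusted p = 2.6e-06) and 4.78 ± 0.10 above shARF (adjusted p = 3.7e-09). HTRA3, a secreted serine protease, was at 22.3 ± 1.1 TPM in Both, 4.73 ± 0.835 TPM in MLN and 0.395 ± 0.074 TPM in shARF.

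ANKFN1 was at 10.3 ± 0.954 TPM in Both and at 1.25 TPM on average in MLN and in shARF alike, from 0.279 ± 0.108 TPM in Ctrl. AC012038.2 was at 21.6, 24.9 and 33.1 TPM in Both, but its other libraries scattered, from 1.76 to 7.49 TPM in MLN and from 0 to 1.22 TPM in Ctrl.

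The 5 fallers of this kind with the largest margin, chosen in the same way, stepped down from Ctrl to each single condition and again to Both. LINC00261 held 2.71 ± 0.0984 TPM in MLN and 7.88 ± 2.11 TPM in shARF before its near loss in Both. SCNN1B, the beta subunit of the epithelial sodium channel, was at 57.9, 39.4 and 40.4 TPM in Ctrl, 3.19 ± 0.208 TPM in MLN, 5.22 ± 0.918 TPM in shARF and 0.191, 0.31 and 0.149 TPM in Both. EHF, an epithelial ETS factor, was at 20.4 ± 1.59, 4.51 ± 0.552, 5.89 ± 0.208 and 0.545 ± 0.0681 TPM in the same order of conditions. Its difference from MLN was -2.83 ± 0.19 (adjusted p = 4.7e-06) and from shARF -3.22 ± 0.15 (adjusted p = 2.5e-07).

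MT1F, a metallothionein that binds zinc and copper, was at 16.7 ± 0.73 TPM in Ctrl, 4.38 ± 0.545 TPM in MLN, 2.3 ± 0.558 TPM in shARF and 0.317, 0.0804 and 0.232 TPM in Both. IL37, given above, held 13.7 ± 1.49 TPM in MLN and 4.12 ± 0.0438 TPM in shARF, and its difference from shARF was -2.84 ± 0.45 (adjusted p = 0.0004).

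**Figure D4:**
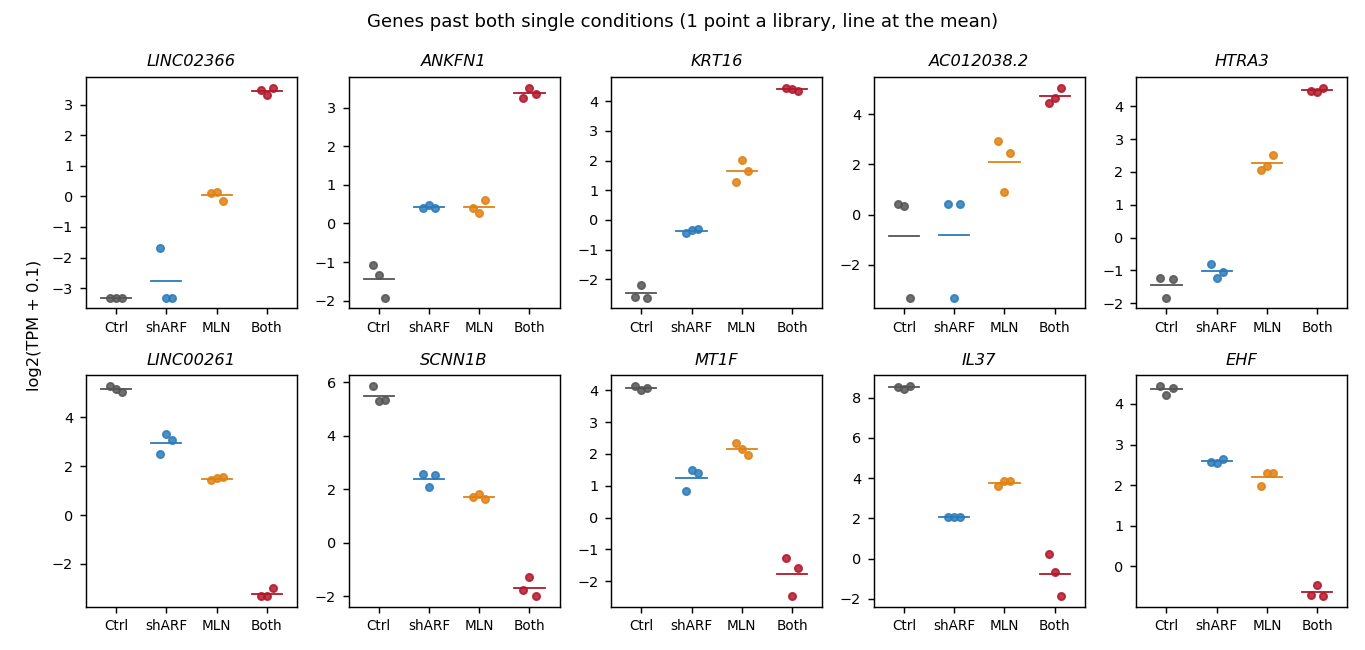
Log2(TPM + 0.1) (vertical axes, each with its own range) of the 5 rising (top) and 5 falling (bottom) genes with the largest margin past Ctrl, MLN and shARF, with 1 point a library and a line at the mean of 3. The genes were chosen by these differences. LINC00261, SCNN1B and EHF sit between 2.71 and 7.88 TPM on average in the single conditions and at 0.545 TPM or less in Both.

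Genes of 26 pathway lists were then counted in Both vs Ctrl, to be read against the 12.5% called higher and 15.9% called lower over all genes tested. The lists were chosen with earlier results of these libraries known, and no test was made of a list as a whole. At an adjusted p below 0.05 and any size of change, the shares over all genes were 33.8% higher and 40.2% lower. Of the 26 lists, 13 had a median fold change above 0, a count that ran from 12 to 15 under the alternatives.

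**Figure D5:**
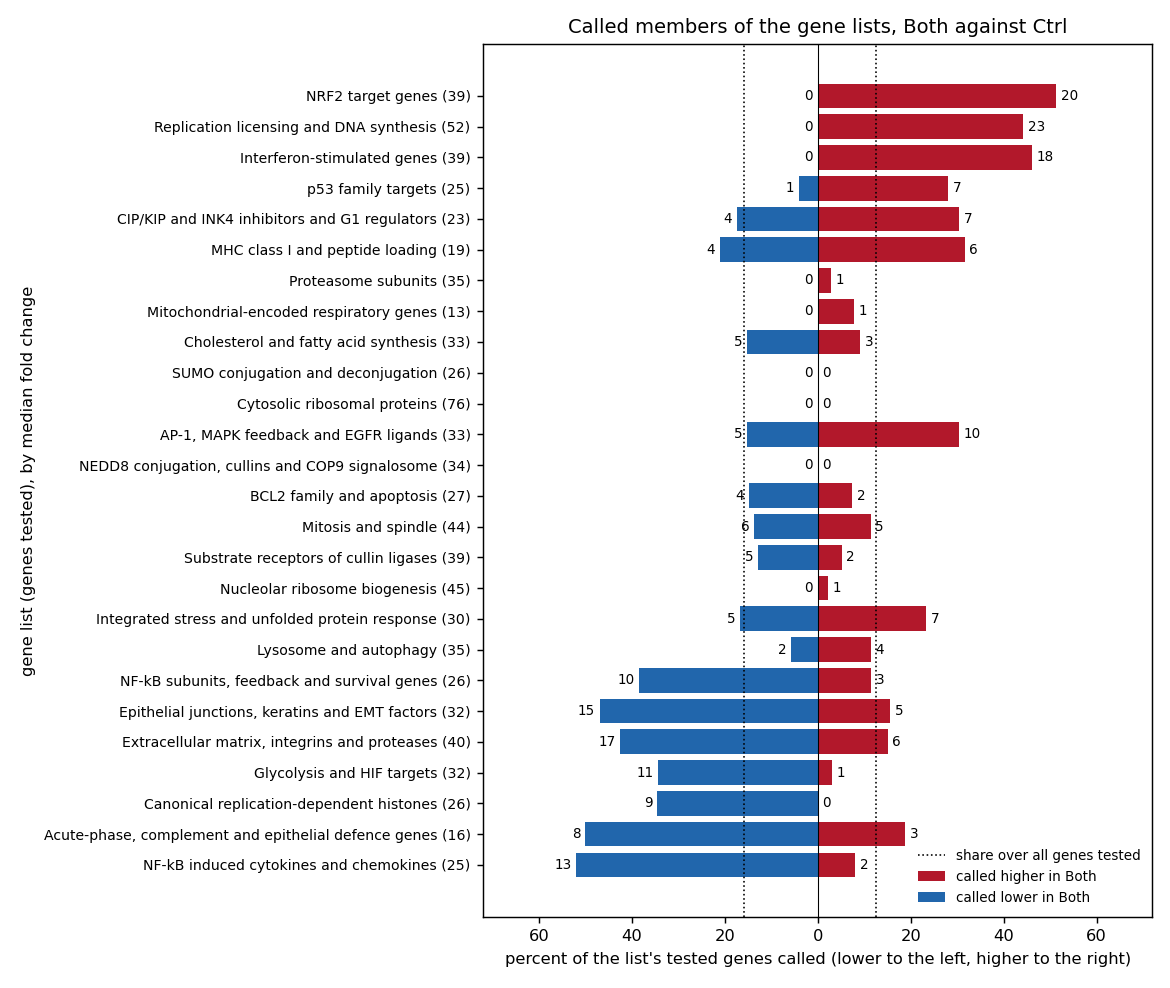
Percent of each list's tested genes (horizontal axis) called lower (blue, left) and higher (red, right) in Both vs Ctrl, with the number of called genes beside each bar, the number tested in brackets and dotted lines at 15.9% and 12.5%. NRF2 target genes, replication genes and interferon-stimulated genes have 20, 23 and 18 called higher and 0 called lower, and NF-kB induced cytokines have 13 called lower and 2 called higher.

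NRF2, which the CUL3 ligase with KEAP1 normally degrades, drives genes of detoxification and glutathione supply. Of 39 tested target genes, 20 were called higher and 0 lower, with a median log2 fold change of 1.35. The largest rises were the CYP4F11, AKR1C1 and AKR1C2 changes given above, and FTL and TXNRD1 are members of the same list. NFE2L2, the gene of NRF2 itself, rose by less, from 84.7 ± 3.45 to 124 ± 11.5 TPM (0.55 ± 0.08, adjusted p = 0.00012). The summed level of the list was 24640 TPM in Ctrl, 24937 in shARF, 33203 in MLN and 36512 in Both on average.

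NF-kB induced cytokines and chemokines moved apart. Of 25 tested, 13 were called lower and 2 higher, and the median was -1.02. The 2 called higher were CXCL8 and CXCL3, both CXC chemokine genes on chromosome 4. CXCL3 was at 134, 115 and 150 TPM in Ctrl and at 438, 473 and 462 TPM in Both (1.79 ± 0.09, adjusted p = 3.6e-08), against 451 ± 41.2 TPM in MLN and 0.945 ± 0.326 TPM in shARF. CSF3, IL1B and CCL20 fell the most, CCL20 from 50.6 ± 1.92 to 1.97 ± 0.357 TPM (-4.63 ± 0.12). The list summed to 6198 ± 163 TPM in Ctrl and 38632 ± 935 TPM in Both, where it is nearly all CXCL8. In MLN the sum was 33275 ± 5411 TPM and in shARF 159 ± 5.69 TPM. The median of the list was lower still in shARF vs Ctrl, at -3.89, and was -0.25 in MLN vs Ctrl. In Both vs shARF it was 1.72, so over the list Both lay above shARF.

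Of 26 tested NF-kB subunits, feedback and survival genes, 10 were called lower and 3 higher. NFKBIA, which encodes the inhibitor IkBa and is itself an NF-kB target, fell from 395, 374 and 357 TPM to 42.7, 42.2 and 43.8 TPM (-3.13 ± 0.07, adjusted p = 7e-11). TNIP1, which restrains signalling with A20, fell from 254 ± 26 to 30.7 ± 0.713 TPM (-3.04 ± 0.08), and IRAK2, a kinase of interleukin-1 receptor signalling, from 81 ± 9.12 to 8.31 ± 0.84 TPM (-3.27 ± 0.11). All 3 were also lower than in MLN and than in shARF, but the list as a whole was lowest in shARF. It summed to 1870 TPM in Ctrl, 635 in shARF, 1505 in MLN and 896 in Both on average. The median of the list was -0.44 in Both vs Ctrl, -1.08 in shARF vs Ctrl and 0.51 in Both vs shARF. The genes called higher were TNIP3 (2.14 ± 0.22), the caspase-8 regulator CFLAR (1.35 ± 0.08) and the inhibitor gene NFKBIB (1.21 ± 0.08).

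Of 27 acute-phase, complement and epithelial defence genes, 16 were tested, of which 8 were called lower and 3 higher. SAA1, C3 and LCN2 led the falls. The complement protease C1S rose from 0.982 ± 0.168 to 7.48 ± 0.577 TPM (2.82 ± 0.17). S100A9, a calcium-binding alarmin, was at 18.4, 25.1 and 19.5 TPM in Ctrl and 47.8, 53.4 and 53.7 TPM in Both (1.30 ± 0.11), whereas MLN held 7.16 ± 1.38 TPM and shARF 232 ± 9.1 TPM. The list summed to 27311 TPM in Ctrl, 2269 in shARF, 5582 in MLN and 3924 in Both on average, with PI3 the main part in Ctrl. Its median against Ctrl was -0.80 in Both, -1.28 in MLN and -1.79 in shARF, so each single condition also showed the fall.

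Of 39 interferon-stimulated genes tested, 18 were called higher and 0 lower, with a median of 0.94. RSAD2, the antiviral protein viperin, rose from 7.14, 5.72 and 6.73 TPM to 63.5, 81.2 and 72.3 TPM (3.45 ± 0.11, adjusted p = 1.1e-09). SAMD9 rose from 29.5 ± 1.37 to 168 ± 27.6 TPM (2.49 ± 0.11) and IFI35 from 52.9 ± 5.04 to 222 ± 3.26 TPM (2.07 ± 0.08). RSAD2 and SAMD9 were lower in Both than in MLN, by log2 differences of -0.65 ± 0.12 (adjusted p = 0.0018) and -0.66 ± 0.13 (adjusted p = 0.0028). The list summed to 3062 TPM in Ctrl, 3824 in shARF, 10628 in MLN and 6377 in Both on average.

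MHC class I and peptide loading genes were divided, with 6 of 19 called higher and 4 lower. The peptide transporter TAP1 rose from 53.2 ± 1.57 to 186 ± 2.43 TPM (1.81 ± 0.06), the immunoproteasome subunit PSMB9 by 1.40 ± 0.11 and the class I activator NLRC5 by 1.35 ± 0.14. The trimming peptidases ERAP2 (-1.69 ± 0.15) and ERAP1 (-1.33 ± 0.08) fell with the chaperone PDIA3 (-1.41 ± 0.07).

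Replication licensing and DNA synthesis genes had 23 of 52 called higher and 0 lower, with a median of 0.95. RRM2, a subunit of the reductase that supplies deoxynucleotides, rose from 60, 59.5 and 71.5 TPM to 439, 458 and 407 TPM (2.77 ± 0.09, adjusted p = 8.8e-10). The licensing factors CDC6 and CDT1 rose from 14.9 ± 1 to 72.4 ± 5.17 TPM (2.28 ± 0.08) and from 17.9 ± 0.935 to 82.9 ± 10.2 TPM (2.20 ± 0.09). All 3 were also higher in Both than in shARF. Against MLN, RRM2 passed the test (0.48 ± 0.09, adjusted p = 0.0024) and CDT1 did not (-0.21 ± 0.11, adjusted p = 0.16). CDC6 passed against MLN with all libraries (0.31 ± 0.09, adjusted p = 0.022). Without MLN 1, MLN 2, Both 2 or Both 3 it did not pass (adjusted p from 0.057 to 0.084). The list summed to 2202 TPM in Ctrl, 4023 in shARF, 4449 in MLN and 4736 in Both on average.

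Among CDK inhibitors and G1 regulators, 7 of 23 were called higher and 4 lower. CCNE2, a cyclin of S phase entry, rose from 5.37 ± 0.256 to 56.4 ± 5.47 TPM (3.37 ± 0.09, adjusted p = 3.5e-10). The WEE1-related kinase gene PKMYT1 rose by 3.24 ± 0.11 and E2F2 by 3.20 ± 0.15. The G1 cyclin CCND1 fell from 336, 303 and 283 TPM to 39.7, 39.7 and 40.6 TPM (-2.94 ± 0.08), and did not differ from MLN past the threshold (40.4 ± 0.336 TPM, difference -0.01 ± 0.07, adjusted p = 0.88). CDKN2B, which lies beside CDKN2A and encodes p15, fell by 1.31 on the log2 scale (-1.31 ± 0.08).

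The inhibitor genes CDKN1A (p21) and CDKN1B (p27) moved by less than the cutoff. CDKN1A was at 124, 110 and 106 TPM in Ctrl and 219, 205 and 183 TPM in Both (0.84 ± 0.09, adjusted p = 8.1e-06), and it was at 12.2 ± 0.825 TPM in shARF and 344 ± 47.6 TPM in MLN. CDKN1B rose by 0.46 ± 0.07 and the kinase gene WEE1 by 0.95 ± 0.11.

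Mitosis and spindle genes had 5 of 44 called higher and 6 lower, shares near those over all genes. PLK1, a kinase of mitotic entry, fell from 53.1 ± 1.72 to 11.1 ± 0.28 TPM (-2.25 ± 0.07), CDC20, an activator of the anaphase-promoting complex, from 163 ± 7.26 to 47.2 ± 2.38 TPM (-1.79 ± 0.07), and the phosphatase CDC25B from 230 ± 18.5 to 71.1 ± 2.16 TPM (-1.69 ± 0.08). CDK1, the mitotic kinase, rose from 73.1 ± 10.7 to 235 ± 20.3 TPM (1.69 ± 0.11). The separase gene ESPL1 and the kinetochore gene SPC24 each rose by 1.28 on the log2 scale.

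Of 56 canonical histone genes, 26 were tested, of which 9 were called lower and 0 higher. HIST1H1C, a linker histone, fell from 96.3 ± 4.97 to 34 ± 6.74 TPM (-1.51 ± 0.12). HIST1H2BO (-2.57 ± 0.66) and HIST1H2AI (-1.68 ± 0.33) also fell, from 2 ± 0.383 and 5.66 ± 1.73 TPM, though HIST1H2AI lost its call with all 12 libraries in one fit (adjusted p = 0.10). Most histone mRNAs lack the poly(A) tail that some library kits select.

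The genes of the targeted pathway itself kept within the cutoff. None of 34 genes of NEDD8 conjugation, cullins and the COP9 signalosome was called at a fold change beyond 1, while 12 were higher and 10 lower at an adjusted p below 0.05 by limma, together a smaller share than the 74.1% of all genes. NEDD8 rose from 143 ± 8.46 to 182 ± 6.11 TPM (0.35 ± 0.07) and CUL1 fell from 88.9 ± 1.49 to 65.1 ± 4.49 TPM (-0.45 ± 0.07). UBA3, the catalytic subunit of the enzyme that MLN4924 inhibits, did not pass the test (0.07 ± 0.09, adjusted p = 0.52).

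The list of cullin ligase substrate receptors, which also holds adaptors such as SKP1, had 2 of 39 called higher and 5 lower. DTL, the receptor that delivers CDT1 for degradation, rose from 22.4 ± 1.09 to 97 ± 7.61 TPM (2.11 ± 0.08) and the iron-sensing FBXL5 from 34.5 ± 1.34 to 76 ± 5.03 TPM (1.14 ± 0.08). SOCS2, a brake on growth hormone signalling, fell from 24.6 ± 1.51 to 2.2 ± 0.557 TPM (-3.45 ± 0.16). FBXO32 (-1.49 ± 0.14) and SPOP (-1.29 ± 0.08) also fell.

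None of 26 genes of SUMO conjugation and deconjugation was called beyond 1, with 8 higher and 7 lower at an adjusted p below 0.05 by limma, again a smaller share than over all genes. SUMO2 rose from 362 ± 12.9 to 463 ± 21.7 TPM (0.36 ± 0.07, adjusted p = 0.00074).

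Of 25 tested targets of the p53 family, 7 were called higher and 1 lower, in cells known to lack p53. SESN2, a stress-induced inhibitor of mTORC1, rose from 22.3 ± 2.76 to 140 ± 7.39 TPM (2.65 ± 0.10). PMAIP1, the BH3-only protein NOXA, rose from 198 ± 8.65 to 639 ± 45.2 TPM (1.69 ± 0.08) and PLK3 by 1.65 ± 0.11. TP53INP1 fell by 1.64 on the log2 scale (-1.64 ± 0.15), and was lower than in MLN and in shARF as well. MDM2, the ligase that p14ARF binds, rose from 14.3 ± 0.0514 to 24.7 ± 1.06 TPM (0.78 ± 0.08, adjusted p = 4.2e-06).

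Integrated stress and unfolded protein response genes had 7 of 30 called higher and 5 lower. The genes that rose the most, ATF3 (3.66 ± 0.08), CHAC1 (2.82 ± 0.08) and the cysteine-making enzyme gene CTH (2.17 ± 0.09), are known ATF4 targets. ATF3 was at 9.09, 8.63 and 10 TPM in Ctrl and at 120, 116 and 118 TPM in Both. The genes that fell the most, PDIA4 (-1.94 ± 0.07), DNAJC3 (-1.74 ± 0.08) and HSP90B1 (-1.51 ± 0.08), encode chaperones of the endoplasmic reticulum, and HSP90B1 went from 1206 ± 24 to 424 ± 37.8 TPM.

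Glycolysis and HIF targets had 11 of 32 called lower and 1 higher, with a median of -0.78. PKM, pyruvate kinase, fell from 1309, 1175 and 1214 TPM to 350, 317 and 327 TPM (-1.89 ± 0.07, adjusted p = 4.2e-09). CA9, a carbonic anhydrase induced by hypoxia, was at 42.8, 23.1 and 24.3 TPM in Ctrl and 3.81 ± 0.583 TPM in Both (-2.90 ± 0.21). The lactate exporter SLC16A3 fell by 1.66 on the log2 scale (-1.66 ± 0.09), and the vasodilator ADM rose by 1.34 ± 0.13. In shARF, PKM was at 1168 ± 20.2 TPM and CA9 at 56.7 ± 3.69 TPM.

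Cholesterol and fatty acid synthesis genes had 3 of 33 called higher and 5 lower. The desaturase FADS1 rose from 101 ± 3.72 to 305 ± 26.6 TPM (1.59 ± 0.08) and exceeded MLN (142 ± 9.01 TPM, 1.10 ± 0.09) and shARF (127 ± 3.11 TPM, 1.26 ± 0.07). IDI1 (1.20 ± 0.09) and MSMO1 (1.02 ± 0.09, under the cutoff at 0.93 without Both 3 and at 0.96 without Ctrl 1) rose, while PMVK (-2.30 ± 0.10), TM7SF2 (-1.52 ± 0.09) and LSS (-1.48 ± 0.10), of the same sterol pathway, fell.

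Of 35 tested lysosome and autophagy genes, 4 were called higher and 2 lower. GLA, alpha-galactosidase A, rose from 57.2 ± 1.78 to 355 ± 11.1 TPM (2.63 ± 0.07), the protease gene CTSL by 1.28 ± 0.07 and ATG2A by 1.04 ± 0.10 (0.98 without Ctrl 2). The low genes CTSS (-2.66 ± 0.22) and TFEB (-1.84 ± 0.27) fell.

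Genes of protein synthesis and turnover had few calls. None of 76 cytosolic ribosomal protein genes was called beyond 1, with 23 higher and 18 lower at an adjusted p below 0.05 by limma, a smaller share in both directions than the 33.8% and 40.2% of all genes. Of 45 nucleolar ribosome biogenesis genes 1 was called, the helicase DDX10, which rose from 24, 24.1 and 23.1 TPM to 225, 245 and 224 TPM (3.28 ± 0.07, adjusted p = 6.2e-11) and was also above MLN (158 ± 13.4 TPM). Of 35 proteasome genes (subunits with PSME4, POMP and NFE2L1) 1 was called, PSMB3 (1.25 ± 0.09). At an adjusted p below 0.05, 18 were higher and 3 lower, a larger share higher and a smaller share lower than over all genes. Of 13 respiratory genes of the mitochondrial genome, MT-ND6 was called higher, with 27.4, 83.2 and 51.5 TPM in Ctrl and 219, 112 and 107 TPM in Both.

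Extracellular matrix, integrin and protease genes had 17 of 40 called lower and 6 higher. Besides MMP3 and MMP10, lumican (LUM), a collagen-binding proteoglycan, rose from 0.152 ± 0.0884 to 11.8 ± 1.48 TPM (5.63 ± 0.29), above MLN (1.37 ± 0.527 TPM) and shARF (5.31 ± 0.781 TPM). LAMA3, a laminin chain of epithelial basement membranes, fell from 58.2, 49.6 and 54.8 TPM to 4.08, 3.62 and 3.47 TPM (-3.83 ± 0.10). COL13A1 fell from 128 ± 11.7 to 10.4 ± 0.449 TPM (-3.62 ± 0.08) and COL17A1, a hemidesmosome collagen, from 4.75 ± 0.163 to 0.504 ± 0.113 TPM (-3.02 ± 0.22).

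Epithelial junction, keratin and EMT genes had 15 of 32 tested called lower and 5 higher. The keratins KRT17 and KRT81 rose beside KRT16, KRT17 from 0.182 ± 0.124 to 49 ± 3.25 TPM (7.55 ± 0.28) and the hair keratin KRT81 from 146, 130 and 137 TPM to 1809, 1679 and 1834 TPM (3.69 ± 0.07, adjusted p = 3.9e-11). KRT16 and KRT17 are neighbours on chromosome 17 and have close copies, so their reads may be divided. The tight junction gene CLDN3 fell from 82.1 ± 8.22 to 11.1 ± 1.43 TPM (-2.88 ± 0.11), the cadherin gene CDH3 by 2.54 on the log2 scale (-2.54 ± 0.13) and the epithelial factor ELF3 from 27.1 ± 2.56 to 5.1 ± 0.0234 TPM (-2.38 ± 0.09). In shARF these 3 were at or above Ctrl on average, with CDH3 at 51 ± 1.11 TPM against 24.2 ± 2.26 TPM in Ctrl.

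AP-1, MAPK feedback and EGFR ligand genes had 10 of 33 called higher and 5 lower. The immediate-early factor EGR1 was at 0.0996, 0 and 0.145 TPM in Ctrl and 23, 18.6 and 16.9 TPM in Both (6.84 ± 0.32). DUSP1, a phosphatase of p38 and JNK, rose from 13.9 ± 1.08 to 213 ± 4.72 TPM (3.93 ± 0.08) and was lower than in MLN (391 ± 21.7 TPM, -0.88 ± 0.08). The ERK feedback genes DUSP4 (-1.50 ± 0.08), SPRY1 (-1.31 ± 0.07) and SPRY2 (-1.09 ± 0.11, just under the cutoff without Both 2) fell.

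Of 27 tested BCL2 family and apoptosis genes, 2 were called higher and 4 lower. PMAIP1, given above, was one, and the pore-forming protein gene BAK1 rose from 99.1 ± 1.69 to 205 ± 12.3 TPM (1.05 ± 0.07), below its level in MLN (331 ± 29.4 TPM). The BH3-only gene BMF fell from 8.43, 7.06 and 7.95 TPM to 0.825, 0.92 and 0.831 TPM (-3.04 ± 0.15), whereas MLN held 9.33 ± 1.38 TPM. BIRC3, a caspase and NF-kB regulator, fell from 4.88 ± 0.271 to 0.92 ± 0.0612 TPM (-2.29 ± 0.17), and BIK from 6.56 ± 0.946 to 1.87 ± 0.656 TPM (-1.81 ± 0.24).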

How the data were processed

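RNA of PC3 cells was sequenced by the study in 12 libraries of 4 conditions. The authors trimmed adapters, mapped the reads to hg38 and quantified genes in CLC Genomics Workbench, and the values they deposited are TPM, which sum to the same total in each library and carry no depth. Conditions follow the sample labels, and the numbers in the column names were used to name libraries and, in 1 alternative, as a replicate block.

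From these values log2(TPM + 0.1) was compared in limma (version 3.58.1, R 4.3.3; eBayes with trend) between groups of 3 libraries, with Benjamini-Hochberg adjustment over the 14547 genes that averaged 1 TPM or more in Both and Ctrl together. An exact permutation test of 3 against 3 cannot go below 0.1. Values are means ± SD (TPM) or log2 differences ± SE. The test was checked on simulated libraries.

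The comparison, gene lists and rules were chosen with earlier results of these data known. Named genes were CDKN2A, the 10 largest rises and falls (called, mean of at least 10 TPM, no overlap), the 5 most abundant called genes in each direction, the 5 in each direction with the largest margin past all other conditions (mean of at least 5 TPM), up to 3 called members of each list in each direction, and background genes (NEDD8, UBA3, CUL1, CDT1, CDKN1A, CDKN1B, WEE1, NFE2L2, NFKBIA, SUMO2 and MDM2). Marker genes are named as lists. Some genes that these rules chose are not reported here. Positions and promoters are from RefSeq (GRCh38.p14). The alternatives were other pseudocounts, filters, scaling, fits and left-out libraries.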

Additional observations from a re-analysis of the deposited data

How the results depend on the processing

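The counts of called genes moved mainly with the filter and the pseudocount, and no named gene changed direction where it was called. At a mean of 10 TPM, Both vs Ctrl gave 903 higher and 1079 lower (257 and 280 beyond 2), Both vs MLN 62 and 222, Both vs shARF 851 and 1020, and 23 and 76 genes passed all 3 comparisons. Without a filter, 2768 were higher and 3211 lower in Both vs Ctrl (1133 and 1052 beyond 2), 408 higher and 1277 lower in Both vs MLN, and 174 higher past all conditions. At a mean of 0.1 TPM, 2692 were higher and 3155 lower in Both vs Ctrl (1154 and 1069 beyond 2), 455 higher and 1264 lower in Both vs MLN, and 191 higher past all conditions. A pseudocount of 1 gave 427 higher and 415 lower beyond 2 in Both vs Ctrl, 169 higher and 522 lower in Both vs MLN, and 91 lower past all conditions. These settings change which genes are tested or how low values weigh. With libraries left out in turn, Both vs Ctrl gave 1794 to 1866 higher and 2231 to 2397 lower. Median-of-ratios scaling moved the median of all genes from -0.06 to 0.02 and gave 2037 higher and 2065 lower, and GAPDH and the other named genes kept their direction. Of 1899 values of the 128 named genes called in Both vs Ctrl, 11 were not called, in 6 genes: among them HIST1H2AI with 12 libraries in one fit (adjusted p = 0.10), MT-RNR2 with the replicate block (0.82), and MT-RNR2, MSMO1, ATG2A and SPRY2 without 1 library. Against MLN, 93 of 1910 values of the named genes lost an adjusted p below 0.05 and 46 gained one. Against shARF, 41 of 1910 lost it and 11 gained it. The median of 7 of the 26 gene lists changed sign under at least 1 alternative: mitosis, the NEDD8 list, cullin substrate receptors, cytosolic ribosomal proteins, mitochondrial-encoded respiratory genes, AP-1 and MAPK feedback, and the BCL2 family. A replicate block on the numbers of the column names gave 1907 higher and 2196 lower. What the numbers stand for is not stated, so whether they pair the libraries is unknown. Deviations of same-numbered libraries correlated at 0.0766 and 0.0451, and those of differently numbered libraries at -0.0958 to 0.0425. Correlations this small, from so few libraries, cannot decide it. No block could be fitted against MLN or shARF, which share fewer than 2 numbers with Both. For genes at or near 0 in a group the fitted fold depends on the pseudocount: CYP4F11 gave 10.43, or 7.12 at a pseudocount of 1 and 13.75 at 0.01. The extremes changed with it. At 0.01, CYP4F11 and SPANXB1 (12.93) rose further than HPD (11.66), and LINC00261 (-11.16) fell further than SERPINB3 (-10.97). Depth is unknown, so differences between low values near 0 cannot be weighed by reads.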
